A study of Mus musculus with 39 samples.

Results

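Open-sea tiles are stretches of 200 bp that lie far from any CpG-dense sequence in the data. The single CpGs listed in them were compared between mouse embryonic stem cells (mESC) without p53 and wild-type cells. Mean total methylation of these CpGs was lower without p53 after retinoic acid and higher before it. A tile was called dense where the table of single CpGs listed 5 or more CpGs in it, and a tile of the tile table was called open sea where its start lay more than 20000 bp from every dense tile start on its chromosome. By this rule 245984 of 377684 tiles (65.1%) were open sea, set against 20673 dense tiles, and 77631 of 330387 listed CpGs (23.5%) lay in them. The distance to the nearest dense tile had a median of 113600 bp, with quartiles at 50000 and 296200 bp and a maximum of 6274000 bp. The 185 tiles on chromosome Y entered because that chromosome has no dense tile, and they have no distance.

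The study profiled DNA methylation in cells without p53, the stress-activated tumour suppressor that regulates transcription, and in wild-type (WT) cells. The mESC came from day 2.5 morulas of matings between 129s-Trp53tm2Tyj/J p53+/- mice, grown in 2i medium on irradiated mouse embryonic fibroblast feeders, and were p53-/- (p53-null) or WT. They were depleted of feeders and given 1 µM retinoic acid (RA) for 4 days to differentiate, or were left untreated in the naive state. Reduced representation bisulfite sequencing (RRBS) of MspI-digested DNA reads 5-methylcytosine (5mC) and 5-hydroxymethylcytosine (5hmC) together, called total methylation here, and its oxidative form (oxRRBS) reads 5mC alone. RRBS libraries numbered 4 p53-null and 5 WT for RA-treated cells, and 3 p53-null and 5 WT for naive cells. The oxRRBS libraries numbered 4 p53-null and 4 WT for RA-treated cells, and 3 p53-null and 5 WT for naive cells. Livers of male mice aged 16 weeks, 3 p53-null and 3 WT, were also profiled but are not analysed here, since no column used can be tied to them. The labels do not give how many cell lines stand behind the libraries, and they do not say whether the naive cells were depleted of feeders before DNA was taken.

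In mammals most CpGs outside CpG islands are methylated by DNMT3A and DNMT3B and kept so by DNMT1, whereas CpG islands mostly stay free of methyl groups. TET enzymes oxidise 5mC to 5hmC. Culture in 2i is known to lower methylation across the genome of mESC, and methylation is regained on differentiation. RRBS selects fragments rich in CpG, so that open-sea sequence is sampled sparsely and only where MspI sites lie close together.

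All values are the authors' pooled values, 1 per genotype and state, with no library values and no coverage. No test of the means could be made, and the spread given is that over the 20 chromosomes with at least 1000 CpGs or tiles, which describes evenness over the genome and not error between cultures. Genotype cannot be told apart from any difference between the cell lines or batches that were pooled into a column. In bulk DNA, a level between 0 and 100% can come from a mixture of cells or from partly methylated cells, and these cannot be told apart.

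Most of these tiles matched their name, but not all. Open-sea tiles had a median total methylation of 51.1% in p53-null and 37.9% in WT cells in the first set of tile columns, against 0.345% in p53-null and 0.326% in WT cells in dense tiles. Of the 136022 open-sea tiles with values in both sets of columns, 6535 (4.80%) were below 10% in every column of total methylation. The share was 47.3% over all other tiles with values in both sets, the dense tiles among them. Among the open-sea tiles with such low values, 71.5% held a listed CpG, against 30.8% of the remaining open-sea tiles. Tiles with 4 listed CpGs, just under the limit for a dense tile, averaged 13.7% in p53-null and 10.4% in WT cells in the first set. Open-sea tiles without a listed CpG averaged 50.9% in p53-null and 39.8% in WT cells, so the 1690 tiles with 4 listed CpGs include many that are lowly methylated. Only 22.4% of open-sea tiles held any listed CpG, so the number listed is not the number of CpGs in the sequence.

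The first question was how the genotypes differed in each state, which the table of single CpGs can answer for total methylation. In RA-treated cells, open-sea CpGs averaged 42.4% in p53-null and 45.9% in WT cells, a difference of −3.47 percentage points with an SD of 0.596 over chromosomes. In naive cells they averaged 36.7% in p53-null and 28.6% in WT cells, a difference of 8.11 points with an SD of 0.586. The genotype difference thus had opposite signs in the 2 states, and in each state all 20 chromosomes had the same sign. Over the CpGs outside the open sea, the differences were −0.463 points in RA-treated and 1.20 points in naive cells. Levels there were 6.69% in p53-null and 7.15% in WT RA-treated cells, and 5.19% in p53-null and 3.99% in WT naive cells. Of these 252756 CpGs, 171494 lay in dense tiles. At 10 to 20 kb from a dense tile the differences were −2.83 points (RA-treated) and 7.52 points (naive). At 20 to 50 kb they were −2.81 and 7.66 points, so the genotype difference was not particular to the open sea.

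Counting CpGs that differed by 10 points or more gave the same picture. In RA-treated cells 19791 open-sea CpGs (25.5%) were lower in p53-null cells, against 9.10% of all listed CpGs, and 6899 (8.89%) were higher, against 3.45% of all. In naive cells 31086 (40.04%) were higher in p53-null cells, against 14.0% of all, and 3794 (4.89%) were lower, against 1.88% of all. The shares were larger in the open sea in both directions. Outside it, 65.1% of CpGs in p53-null and 69.2% in WT cells were at exactly 0% after RA, and 72.4% in p53-null and 71.3% in WT cells were so in the naive state. Of the CpGs that were lower in RA-treated p53-null cells, 48.4% were among those higher in naive p53-null cells, against 40.04% of all open-sea CpGs. These 9579 CpGs made up 30.8% of the naive list, against 25.5% of all open-sea CpGs. Of the CpGs that were higher after RA, 48.8% were also on the naive list, so the overlap was not particular to opposite directions.

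The second question was what RA treatment did in each genotype. Open-sea CpGs were 5.69 points higher in RA-treated than in naive cells in the p53-null pools (SD over chromosomes 1.10), and 17.3 points higher in the WT pools (SD 1.47). Gains of 25 points or more with RA were seen at 8909 CpGs (11.5%) in p53-null cells, against 4.29% of all listed CpGs, and losses of that size at 2290 (2.95%), against 0.864% of all. In WT cells 24945 (32.1%) were higher by that much, against 11.7% of all, and 147 (0.189%) were lower, against 0.0660% of all. p53-null cells thus had fewer CpGs with large gains and more with large losses than WT cells, and they started from a higher naive level. No test of the difference between genotypes was possible.

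Distance from dense tiles ordered these values further. The level of naive CpGs climbed steadily from 33.2% in p53-null and 25.5% in WT cells at 20 to 50 kb, to 41.6% in p53-null and 32.4% in WT cells beyond 500 kb. In RA-treated cells the levels changed less over the same span, from 40.9% in p53-null and 43.8% in WT cells to 42.0% in p53-null and 46.0% in WT cells. The direction of this small change depends on what counts as dense: with 3 listed CpGs as the limit it was −4.397 points in p53-null and −3.45 in WT cells. The gain with RA was smaller far from dense tiles, by an amount that also depends on this limit. Beyond 500 kb minus 20 to 50 kb, the gain was at −7.36 points in p53-null and −4.78 in WT cells with the limit at 5 listed CpGs, and at −9.53 in p53-null and −7.64 in WT cells with 3. With 8 it was −4.18 in p53-null and −1.29 in WT cells, the WT value being under the SD over chromosomes of 1.48, and RA-treated levels were then 5.26 points higher in p53-null and 6.38 in WT cells in the far class. With the limit back at 5 listed CpGs, the gain itself fell from class to class. In p53-null cells this gain was 7.80 points at 20 to 50 kb, 7.05 at 50 to 100 kb and 5.40 at 100 to 200 kb. It was 2.98 points at 200 to 500 kb and 0.397 beyond 500 kb. In WT cells it was 18.3, 18.2, 17.3, 16.3 and 13.5 points over the same classes. At this limit the p53-null pools of the 7561 CpGs beyond 500 kb were thus nearly level between the states, whereas the WT pools still differed. On the autosomes alone the values beyond 500 kb were 0.556 points in p53-null and 13.8 points in WT cells.

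**Figure D1:**
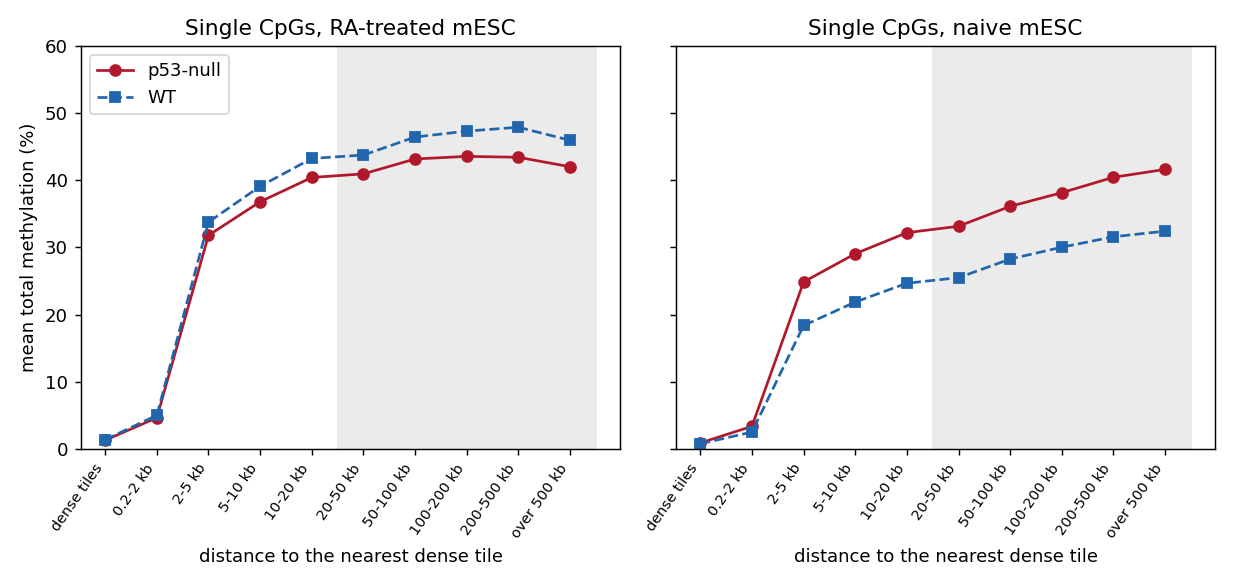
Mean total methylation in percent of single CpGs by the distance of their tile to the nearest dense tile, in RA-treated (left) and naive (right) mESC, for p53-null (circles) and WT (squares) cells. Each point is a mean over CpGs of pooled columns with no replicate error, and grey marks the open sea, where p53-null lies below WT after RA and above it in naive cells.

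CpGs were also sorted by their mean level in the other state, so that no value set its own class. In RA-treated cells the genotype difference was −0.589 points for CpGs under 5% in naive cells, −3.25 points for those at 5 to 20%, and between −4.69 and −3.84 points in the classes above. In naive cells it was 0.104 points for CpGs under 5% in RA-treated cells, 1.79 points at 5 to 20%, 6.49 points at 20 to 40%, and between 10.5 and 11.7 points above 40%. The difference was therefore small in CpGs with little methylation and spread over all classes with more. CpGs under 5% in RA-treated cells averaged 0.894% in p53-null and 0.790% in WT naive cells, so a wide mean difference could not be seen there.

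The tile table adds 5mC and many more sites, in 2 sets of columns whose headings name genotype and modification but no cell state. A 5mC value needs oxRRBS, which the labels give for mESC only, so both sets are from mESC. No state was assigned to either, and they are called the first and the second set by their order in the table. Of the open-sea tiles, 159014 had values in the first set and 159253 in the second, and 63739 (25.9%) had none in either.

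Total methylation of open-sea tiles averaged 47.5% in p53-null and 37.1% in WT cells in the first set, a difference of 10.4 points (SD over chromosomes 0.471). For 5mC the first set gave 41.8% in p53-null and 30.2% in WT cells, a difference of 11.6 points (SD 0.440). In the second set total methylation averaged 47.7% in p53-null and 51.8% in WT cells, a difference of −4.06 points (SD 0.592). The 5mC averages of the second set were 44.4% in p53-null and 49.6% in WT cells, a difference of −5.25 points (SD 0.590). Most of the shift in level between the sets was in WT cells, for both modifications. p53-null pools had nearly the same total level in both sets.

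Intermediate levels dominated. In the first set 74.3% of p53-null and 74.0% of WT tiles had total methylation of 20 to 80%, and 8.06% of p53-null and 1.71% of WT tiles were at 80% or more. Of the second-set tiles, 85.2% of p53-null and 83.5% of WT tiles were at 20 to 80%, and 3.08% of p53-null and 6.28% of WT tiles were at 80% or more. The genotype with the higher mean thus also had the larger share of nearly full tiles in each set.

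The rule's limit at 20000 bp marked no step. Tiles just inside it, at 20200 to 22000 bp, had a genotype difference of 9.71 points (first set) and −3.45 points (second set). Tiles just outside, at 18000 to 20000 bp, had differences of 9.48 points (first set) and −3.46 points (second set). The step was nearer to the dense tiles: total methylation in the first set averaged 8.28% in p53-null and 5.94% in WT cells at 200 to 2000 bp, and 36.0% in p53-null and 26.9% in WT cells at 2 to 5 kb.

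Within the open sea, total methylation of the first set climbed with distance to 51.3% in p53-null and 39.7% in WT cells beyond 500 kb, and the genotype difference widened from 9.90 points at 20 to 50 kb to 11.6 points. The second set was highest in WT cells at 100 to 200 kb, with 48.4% in p53-null and 52.9% in WT cells, and had 45.4% in p53-null and 49.1% in WT cells beyond 500 kb. Its fall beyond 500 kb, relative to 20 to 50 kb, turned into a rise of 0.812 points in p53-null and 1.55 points in WT cells when dense tiles needed 8 listed CpGs. Its genotype difference was −3.48 points at 20 to 50 kb, −4.71 points at 200 to 500 kb and −3.74 points beyond.

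**Figure D2:**
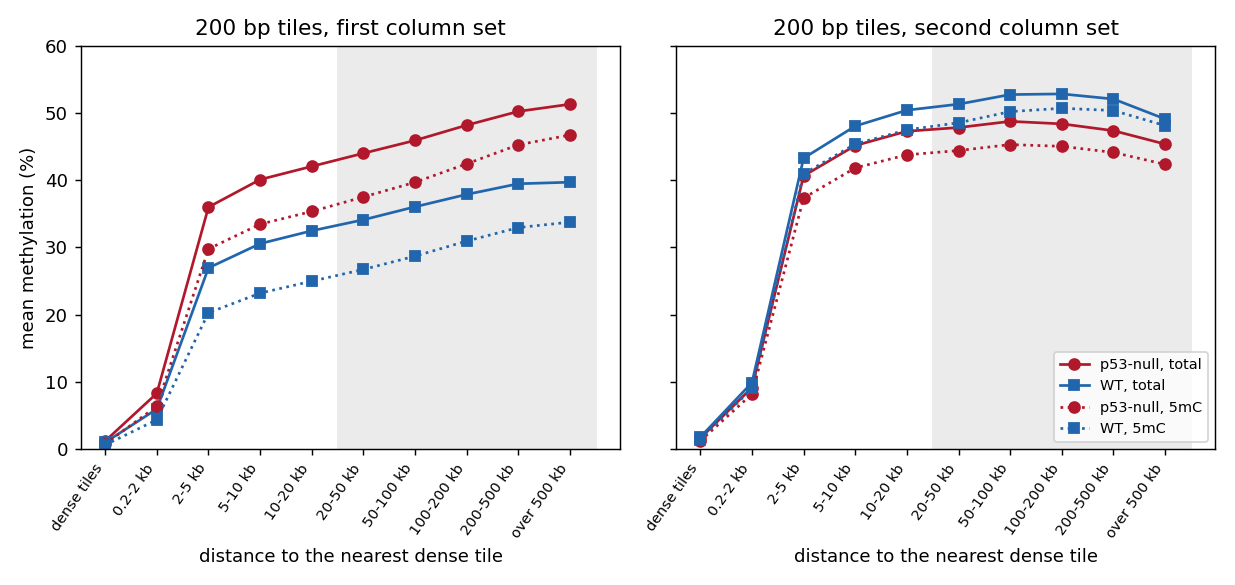
Mean methylation in percent of 200 bp tiles by distance to the nearest dense tile in the first (left) and second (right) set of columns, for p53-null (circles) and WT (squares) cells, with total methylation as solid and 5mC as dotted lines. Grey marks the open sea: beyond 500 kb total methylation was 51.3% in p53-null and 39.7% in WT cells on the left, and 45.4% in p53-null and 49.1% in WT cells on the right.

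The 5hmC estimate is total methylation minus 5mC, each from its own libraries, so it carries the noise of both. It was at or below −10 points, which no true level can be, in 13.5% of p53-null and 10.1% of WT open-sea tiles in the first set, and in 9.96% of p53-null and 15.1% of WT tiles in the second. Its mean was 5.72 points in p53-null and 6.92 points in WT cells in the first set, a difference of −1.20 points that was negative on all 20 chromosomes. The second-set mean was 3.32 points in p53-null and 2.13 points in WT cells, a difference of 1.19 points that was positive on all 20. Both differences were nearly gone in tiles with 1 listed CpG, at −0.0466 points in the first set and 0.272 in the second, and larger in tiles with no listed CpG, at −1.81 points (first set) and 1.64 points (second set).

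With distance, 5hmC of WT cells in the second set fell from 2.77 points at 20 to 50 kb to 0.987 points beyond 500 kb, whereas p53-null cells had 3.43 and 3.02 points in these classes. In the first set the estimate was 6.50 points in p53-null and 7.40 in WT cells at 20 to 50 kb, and 4.58 in p53-null and 5.95 in WT cells beyond 500 kb. The genotype difference in the second set thus grew from 0.658 to 2.03 points over this span. In tiles with 1 listed CpG it was 0.142 points at 20 to 50 kb and 0.696 points beyond 500 kb. The fall with distance was also nearly absent in tiles with 1 listed CpG. Their second-set estimate was 6.53 points in p53-null and 6.39 in WT cells at 20 to 50 kb, and 6.82 in p53-null and 6.13 in WT cells beyond 500 kb. The first-set estimate of such tiles was 10.7 points in p53-null and 10.6 in WT cells at 20 to 50 kb, and 10.5 in p53-null and 10.9 in WT cells beyond 500 kb.

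**Figure D3:**
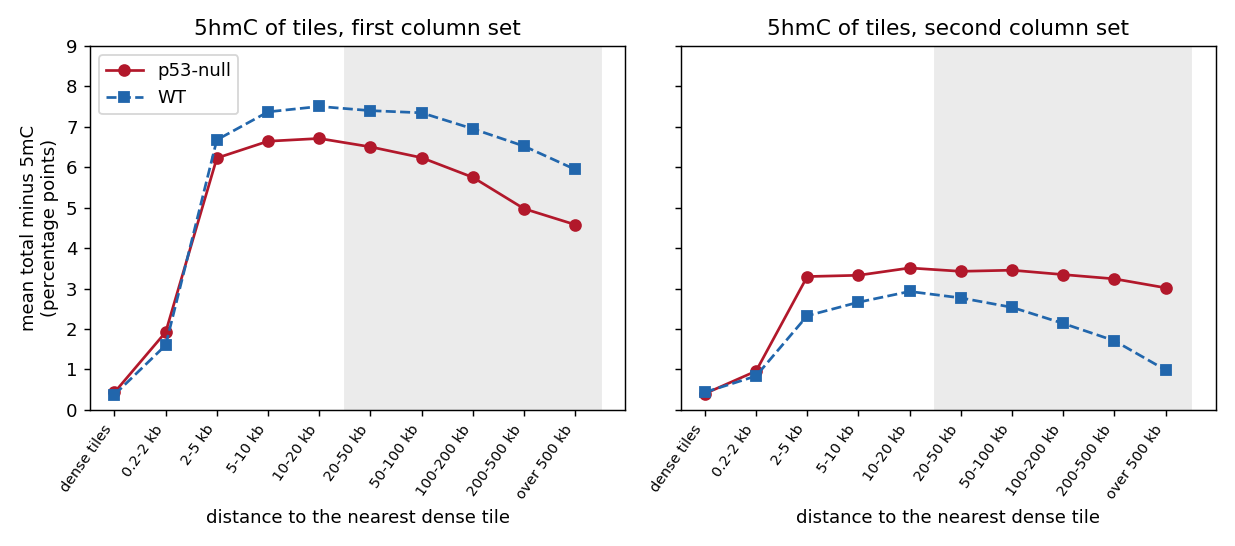
Mean 5hmC, as total methylation minus 5mC in percentage points, of 200 bp tiles by distance to the nearest dense tile, for p53-null (circles) and WT (squares) cells in the first (left) and second (right) set of columns. In the second set p53-null cells had 3.02 points and WT cells 0.987 points beyond 500 kb, whereas tiles with 1 listed CpG, not drawn here, had 6.82 in p53-null and 6.13 in WT cells there.

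A single tile was called where the authors' deposited table gave it a q-value below 0.05 and the genotypes were at least 10 points apart. The sources used here do not say if variation among libraries went into the q-values. By the authors' deposited table, total methylation of the first set was higher in p53-null cells in 53478 open-sea tiles (33.6%), against 28.1% of all tiles, and lower in 1530 (0.962%), against 0.786% of all. For 5mC of the first set, the authors' deposited table gave 70285 higher tiles (44.2%), against 36.6% of all, and 11401 lower ones (7.17%), against 6.03% of all. For the second set it gave 7363 open-sea tiles lower for total methylation (4.62%), against 3.65% of all, and 910 higher (0.571%), against 0.481% of all. For 5mC of the second set the authors' deposited table had 24392 lower tiles (15.3%), against 12.3% of all, and 5102 higher ones (3.20%), against 2.81% of all. In each of these lists the open-sea share was somewhat above the share over all tiles, a set that is itself mostly open sea.

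**Figure D4:**
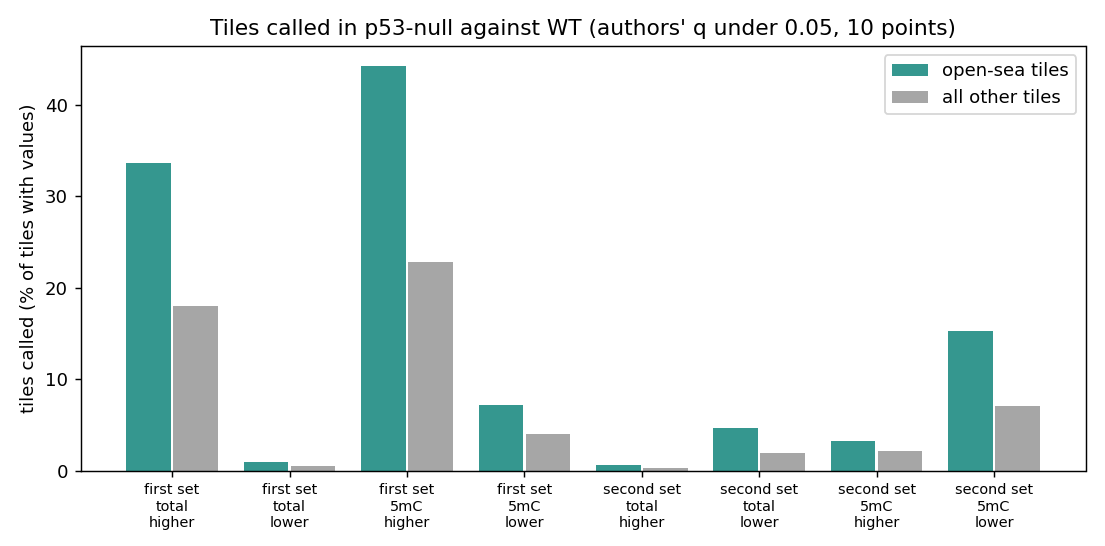
Percent of tiles with values that were called higher or lower in p53-null than in WT cells by the authors' deposited table (q below 0.05, 10 points or more), for open-sea tiles and for all other tiles, by set and modification. The open-sea bar was the taller in every pair, as at 33.6% against 17.97% for higher total methylation in the first set. The other tiles include dense ones, of which 0.672% were called in that list, whereas 31.6% were at 10 to 20 kb. For higher 5mC in the second set, tiles at 10 to 20 kb had 3.88%, against 3.20% in the open sea.

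The total and 5mC lists of the authors' deposited table overlapped in part. In the first set 30130 open-sea tiles were higher in both, which is 56.3% of the total list and 42.9% of the 5mC list, and 3248 were higher for total but lower for 5mC. As to the second set, 2380 tiles were lower in both, 32.3% of the total list and 9.76% of the 5mC list, and 182 were lower for total but higher for 5mC. Only 271 first-set tiles were lower in both (17.7% of the total list, 2.38% of the 5mC list), whereas 508 were lower for total but higher for 5mC. Likewise 130 second-set tiles were higher in both (14.3% of the total list, 2.55% of the 5mC list), and 91 were higher for total but lower for 5mC. Over all open-sea tiles with first-set values, the authors' deposited table called 5mC higher in 44.2% and lower in 7.17%. For the second set it called 5mC lower in 15.3% and higher in 3.20%. Each same-direction overlap, as a share of its total list, was above this background. Among tiles with values in both sets, 2329 had higher total methylation in p53-null cells in the first set but lower in the second, which is 4.83% of the first list and 35.6% of the second. Both shares are close to the background over all 136022 such tiles, of which 4.81% were lower in the second set and 35.4% higher in the first. Another 425 were higher in both sets, 0.882% of the first list and 53.4% of the second, where the background was 0.585% for the second set and 35.4% for the first.

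Direction was even over the genome at the scale of chromosomes. The total difference ran from 9.71 to 11.6 points in the first set and from −4.65 to −2.30 points in the second. The X chromosome, with 8812 open-sea tiles, was at the edge of both ranges: it had the widest difference in the first set, 49.1% in p53-null and 37.5% in WT cells, and the narrowest in the second, 43.3% in p53-null and 45.6% in WT cells. In the first set 2273 of the 4803 X tiles with values lay beyond 500 kb. The difference there was 13.25 points on X, against 11.4 on the autosomes. At 20 to 50 kb it was 8.81 points on X, against 9.91 on the autosomes. Single CpGs did not share the wide difference: on X the naive difference was 6.55 points, the smallest of all chromosomes, against 7.35 to 9.33 on the autosomes. After RA it was −2.07 points on X, against −4.29 to −2.38 on the autosomes. For single CpGs the gain of p53-null cells with RA was 2.57 points on X, against 4.36 to 7.71 points on the autosomes. In WT cells it was 11.2 points on X, against 16.1 to 18.3 points on the autosomes. The sex of the mESC lines is not given in the labels, and its part in the values on X was not tested.

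**Figure D5:**
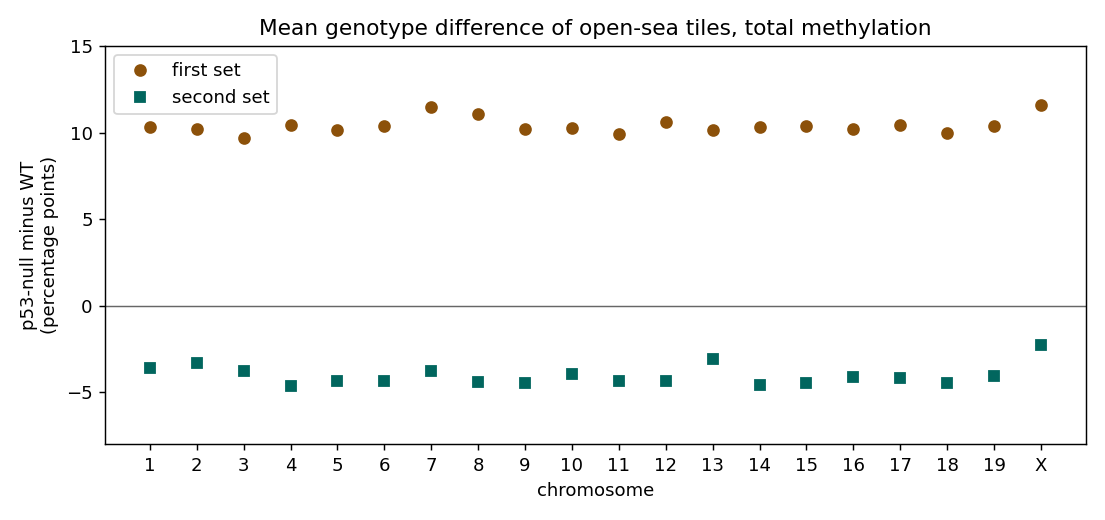
Mean p53-null minus WT difference in total methylation, in percentage points, of open-sea tiles on each chromosome, for the first (circles) and second (squares) set of columns. All 20 chromosomes lay above 0 in the first set and below 0 in the second, with X at 11.6 and −2.30.

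Windows of 1000000 bp with at least 20 open-sea tiles showed how far the pattern held locally. In the first set p53-null cells were higher in 2506 of 2507 windows, by a median of 10.4 points and by up to 25.02. They were lower in 2412 of 2496 windows of the second set, with a median difference of −3.95 points and an extreme of −11.9. Windows where p53-null cells were higher in both sets numbered 24 of 108 on X and 59 of 2375 on the autosomes.

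The windows named here were chosen after their values were seen, and positions are on build mm9. The widest increase in the first set was at chrX:26000001-27000000, where 60 tiles averaged 72.1% in p53-null and 47.0% in WT cells and 43 of them were called higher by the authors' deposited table. Second-set levels of this window were 47.6% in p53-null and 44.3% in WT cells. A window close by was similar: chrX:28000001-29000000 had 72.0% in p53-null and 48.5% in WT cells in the first set, and 51.9% in p53-null and 47.1% in WT cells in the other set. These X windows hold 8 and 1 listed CpGs. The lowest WT level in the first set was at chr6:47000001-48000000, where 91 tiles averaged 18.1% in p53-null and 13.7% in WT cells, and the second set gave 20.6% in p53-null and 20.5% in WT cells. The widest decrease in the second set was at chr14:10000001-11000000, with 43.8% in p53-null and 55.7% in WT cells over 23 tiles. Of these, the authors' deposited table called 7 lower, where the share over all tiles was 3.65%. Windows chosen for a wide difference tend to hold many called tiles by that choice, so nothing is read from these counts.

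A small number of open-sea CpGs differed between genotypes in the same direction in both states. By 25 points or more in each state, 45 (0.0580%) were lower in p53-null cells, against 0.0188% of all listed CpGs, and 111 (0.143%) were higher, against 0.0566% of all. Chromosome 11 held 9 of the 45 lower ones, 0.185% of its open-sea CpGs, while the other chromosomes held 0 to 0.130%. It also held 10 of the 111 higher ones, 0.206% of its open-sea CpGs. Of the 9 lower ones, 6 lay within 2343446 bp, from chr11:87633718 to chr11:89977164, a run that was noticed after the values were seen. In these 6 CpGs the level was 0 to 20% in p53-null and 63 to 79% in WT cells after RA, and 0 to 10% in p53-null and 37 to 69% in WT naive cells. The choice of these CpGs fixes the direction of the difference. The 6 were also picked for lying close together, so nothing is read from their place.

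The CpG at chr11:88289730, for example, had 9% in p53-null and 79% in WT cells after RA and 10% in p53-null and 60% in WT naive cells. The other 169 open-sea CpGs in chr11:87000001-90000000 averaged 33.3% in p53-null and 39.2% in WT cells after RA, and 27.3% in p53-null and 21.8% in WT naive cells. Leaving out the 11 tiles within 1000 bp of the 6 CpGs, the authors' deposited table called 26 of 265 tiles there (9.81%) lower for total methylation in the second set and 8 of 264 (3.03%) lower in the first set. The shares over all open-sea tiles were 4.62% (second set) and 0.962% (first set). The window was chosen for its CpGs and this alternative after seeing the data, so nothing is read from the excess. Trp53, the gene that encodes p53, is also on mouse chromosome 11. Its position relative to these CpGs is not analysed here.

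Neighbouring open-sea tiles were alike only over short distances. The WT total levels of tiles with adjacent starts, 200 bp apart, had a Pearson r of 0.73 across 63647 pairs in the first set, and r was 0.55 at 400 to 1000 bp, 0.22 at 1200 to 5000 bp and 0.08 at 5200 to 20000 bp. For the genotype difference r was 0.32 at 200 bp and 0.02 at 5200 to 20000 bp. Tiles are not independent, adjacent ones can share reads and MspI fragments, and these values are descriptions only.

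Some tiles are named by rule. The open-sea tiles farthest from a dense tile, with values in every column and a listed CpG, were chrX:113349201-113349400, chrX:112968601-112968800 and chr15:19946201-19946400, at 6161600, 6069400 and 5536000 bp. The tile on chromosome 15 had a total level of 96.4% in p53-null and 82.4% in WT cells in the first set, and of 77.8% in p53-null and 85.7% in WT cells in the other. The first X tile had 51.6% in p53-null and 54.3% in WT cells in the first set, and 73.1% in p53-null and 84.6% in WT cells in the second. In the authors' deposited table the q-values for total methylation of these 3 tiles lay between 0.154 and 0.764, so none was called for total methylation. For 5mC the authors' deposited table called the tile at chrX:112968601-112968800 in both sets, in opposite directions. Its 5mC level was 18.2% in p53-null and 36.2% in WT cells in the first set (q of 0.0213 by the authors' deposited table). Second-set 5mC levels were 62.2% in p53-null and 40% in WT cells (the authors' deposited table gave q = 0.0169).

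Among tiles called for total methylation, chr12:38070201-38070400 had the largest increase in the first set, with 92.7% in p53-null and 24.6% in WT cells (the authors' deposited table gave q = 5.68e-11). Second-set values there were 45.3% in p53-null and 47.7% in WT cells. Its listed CpG read 45% in p53-null and 50% in WT cells after RA, and 93% in p53-null and 25% in WT naive cells. The next tiles were chr2:31740601-31740800, with 86.4% in p53-null and 25.9% in WT cells, and chr14:50837601-50837800, with 60% in p53-null and 0% in WT cells. At the chr2 tile 5mC was 19.4% in p53-null and 17.6% in WT cells (q = 0.457 in the authors' deposited table). At the chr14 tile the WT 5mC level was 9.09%, above the WT total. The largest decrease in the first set was at chr12:73248201-73248400, with 34.0% in p53-null and 76.9% in WT cells (q = 0.0018 in the authors' deposited table), followed by chr13:19290601-19290800 and chr13:94784601-94784800. In 2 of these 3 tiles 5mC was called in the opposite direction. At chr12:73248201-73248400 the 5mC level was 47.7% in p53-null and 23.5% in WT cells (q = 0.0104 in the authors' deposited table), so the p53-null 5mC level was above the p53-null total. At chr13:94784601-94784800 the total was 44.6% in p53-null and 82.1% in WT cells, while 5mC was 57.8% in p53-null and 16.3% in WT cells (the authors' deposited table gave q = 1.56e-14).

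In the second set chr19:56219001-56219200 had the largest decrease, with 37.2% in p53-null and 100% in WT cells (q = 0.00354 in the authors' deposited table), while the first set gave 55.6% in p53-null and 47.2% in WT cells there. It was followed by chr4:30552801-30553000, with 35.4% in p53-null and 90.9% in WT cells, and chr8:12325401-12325600, with 23.3% in p53-null and 77.8% in WT cells. The listed CpG of the chr19 tile read 69% in WT cells after RA and 39% in WT naive cells. The largest increase of the second set was at chr2:74866201-74866400, with 89.7% in p53-null and 44.8% in WT cells (q = 0.00151 in the authors' deposited table). Next came chr11:62905001-62905200, with 62.5% in p53-null and 17.6% in WT cells, and chr13:94721601-94721800, with 43.6% in p53-null and 0% in WT cells. At the chr13 tile the WT 5mC level was 4.88%, above the WT total.

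For 5mC some of the extreme tiles differed much less in total methylation. At chr17:50132801-50133000 the 5mC level of the first set was 95.5% in p53-null and 7.14% in WT cells (q = 5.21e-08 in the authors' deposited table), but the total was 84.4% in p53-null and 64.7% in WT cells. At chr18:63240401-63240600 it was 3.64% in p53-null and 67.7% in WT cells, while the total was 49.1% in p53-null and 61.7% in WT cells. At chr5:118123801-118124000 the 5mC level of the second set was 18.2% in p53-null and 76.4% in WT cells (q = 3.8e-06 in the authors' deposited table), above the WT total of 52.9%. A 5mC level above the total cannot be a true state of the same DNA, and it was read in all 3 of these tiles, in p53-null cells on chromosome 17 and in WT cells on chromosomes 18 and 5, so each carries an error of unknown size.

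Among single CpGs, the largest increases in RA-treated p53-null cells were at chr13:46894295, with 87% in p53-null and 31% in WT cells, chr9:15134729, with 96% in p53-null and 44% in WT cells, and chr1:190405211, with 73% in p53-null and 26% in WT cells. The largest decreases after RA were at chr11:88289730, described above, at chr11:88641994, with 7% in p53-null and 72% in WT cells, and at chr6:118752238, with 20% in p53-null and 84% in WT cells. In naive cells the largest increases were at chr9:20039957, with 94% in p53-null and 13% in WT cells, chr13:64188508, with 93% in p53-null and 21% in WT cells, and chr8:122273695, with 88% in p53-null and 16% in WT cells. The largest naive decreases were at chr11:88327784, with 8% in p53-null and 69% in WT cells, chr15:78802979, with 17% in p53-null and 70% in WT cells, and chr11:88289730. The CpGs lowest in p53-null cells thus included 3 from a short stretch of chromosome 11, chr11:88289730 being on both lists.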

How the data were processed

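RRBS and oxRRBS libraries of mESC and liver (39 libraries in 10 groups by assay, state or tissue, and genotype) were grouped by their titles. Per the submitters' processing notes, Trim Galore, BSMAP, methylKit and genome build mm9 were used; the sources used here do not give their roles, versions, coverage filters or how libraries were pooled. The deposited table of single CpGs holds whole percent values by the authors, 1 pooled column per genotype and state; 4 further columns with an undefined suffix were not used. The deposited tile table holds fractions by the authors, multiplied here to percent, with differences and q-values; 4 columns that could not be tied to a group were not used, so the liver is not analysed here.

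Tiles were assigned by position, and distances were taken between tile starts. Means count each tile or CpG once, with differences as p53-null minus WT, or as RA-treated minus naive. The differences used for calls are those of the authors' deposited table with the sign turned, and a q-value of −1 was read as none. The planned tests on libraries could not be run, since depth and library values are unknown. Counting was tested on simulated data. Named sites are the 3 farthest tiles and the 3 largest changes each way among called tiles, 1 per 1000 bp, and among CpGs. The members and lists were chosen with earlier results of these data known. No sequence or gene is given, since no mm9 genome was used here. Alternatives changed the distance limit, the density limit, the chromosomes, the tiles and CpGs that enter, and the calling limits. Tools were pandas 2.3.3, numpy 2.4.6 and matplotlib 3.10.9 under Python 3.11.15.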

Additional observations from a re-analysis of the deposited data

Results flagged for a closer look

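The genotype difference of open-sea CpGs had opposite signs in the 2 states, −3.47 points in RA-treated and 8.11 points in naive cells, so that the RA-treated difference minus the naive one was −11.6 points. The 2 sets of tile columns had opposite signs too: the second minus the first was −14.5 points for total methylation and −16.8 points for 5mC. For total methylation, tiles and CpGs both come from the mESC RRBS libraries of this study, so they are not independent observations. None of these differences between differences was tested, because each group is a single pooled column.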

How the results depend on the processing

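Of 214 recomputed values, 163 moved by less than 1 SD over chromosomes, or for counts by less than 1.5 times, 43 moved by more and 8 changed sign. Restricting to autosomes, to tiles with values in every column, or to tiles away from 0 and 100%, and limits of 10000 or 50000 bp, moved no value by more than that. Values below are in percentage points.

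With dense tiles of 3 or more listed CpGs, the naive CpG genotype difference was 9.84, and the first-set tile differences were 10.9 for total and 12.3 for 5mC. Beyond 500 kb minus 20 to 50 kb, first-set WT tiles were at 3.20, second-set tiles at −5.50 in p53-null and −5.81 in WT cells, RA-treated CpGs at −4.397 in p53-null and −3.45 in WT cells, p53-null naive CpGs at 5.13, and the gain with RA at −9.53 in p53-null and −7.64 in WT cells. With 8 or more, the genotype differences of CpGs were −2.48 after RA and 5.74 in naive cells, the gain with RA was 4.58 in p53-null and 12.8 in WT cells, and the first-set tile differences were 9.78 for total and 10.9 for 5mC. The same far-minus-near values were then 0.812 in p53-null and 1.55 in WT for second-set tiles, 5.26 in p53-null and 6.38 in WT for RA-treated CpGs, and −4.18 in p53-null and −1.29 in WT for the gain.

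With each tile counting once, the naive difference was 9.09 and the far-minus-near value of RA-treated p53-null CpGs −0.522, and without CpGs at 0 throughout that value was −0.373. Tiles with 1 listed CpG, an alternative chosen after seeing the data, had a naive difference of 10.1, a p53-null gain of 4.36, tile differences of 9.83 and 9.87 for first-set total and 5mC and −4.36 for second-set 5mC, and far-minus-near values of −2.38 in p53-null and −1.26 in WT RA-treated CpGs and −10.2 in p53-null and −7.48 in WT for the gain. In tiles with no listed CpG, also chosen afterwards, the first-set differences were 11.1 and 12.9 for total and 5mC, and second-set WT tiles were at −4.53 beyond 500 kb minus 20 to 50 kb. The cause was not tested.

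With calls at q below 0.01 and 25 points in the authors' deposited table, there were 12720 higher and 200 lower open-sea tiles for first-set total, 33280 and 3929 for first-set 5mC, 83 and 1038 for second-set total, and 1111 and 6706 for second-set 5mC. At any size of difference, 2684 were lower for first-set total. Shares over all tiles were not computed at these limits, so the counts do not set the open sea apart from other tiles. No paired analysis was possible because the columns are pooled and carry no replicate numbers, and leaving out single replicates was not run for the same reason. Depth is unknown, so no interval can be given for any level.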

Other observations

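Tile levels can be set beside the single CpGs in the same tiles, without assigning a state to either set of columns. In the first set the mean absolute gap between a tile's total level and the mean of its listed CpGs was 13.4 points for p53-null and 20.6 points for WT RA-treated CpGs, and 6.09 points for p53-null and 5.72 points for WT naive CpGs, over 48755 open-sea tiles. In the second set it was 6.23 points for p53-null and 6.88 points for WT RA-treated CpGs, and 12.8 points for p53-null and 17.8 points for WT naive CpGs, over 48507 tiles.

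Open-sea tiles less often had another listed tile directly beside them, on either side (77.7%), than the other tiles did (87.7%).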
